A study of Mus musculus with 4 samples.

Results

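Hspa1a, Hspa1b, Hspa8, Hsph1, Dnajb1, Hsp90aa1 and Hspb1 encode 7 cytosolic chaperones of the heat shock system, and their UMIs were read in cells of mouse skeletal muscle. The 7 genes were chosen by symbol, and each matched exactly 1 of the 32286 features of the deposited matrices. The cells came from skeletal muscles of a mouse model of Duchenne muscular dystrophy, a disease of muscle that lacks dystrophin. The study traced which muscle cells received LNP-CRISPR, that is, lipid nanoparticles carrying a CRISPR system. The 4 groups were vehicle with bulk isolation, LNP-CRISPR with bulk isolation, vehicle with a satellite cell isolation kit and LNP-CRISPR with the same kit, each with 1 library. They are called vehicle bulk, LNP-CRISPR bulk, and likewise vehicle kit and LNP-CRISPR kit, and values are given in this order. All 4 groups share the dystrophic background, and no healthy muscle was analysed here. The labels give neither the strain, the age, the time after injection nor the number of animals behind a library. With 1 library per group, treatment, animal and preparation cannot be told apart, so no test was run and all intervals below cover counting error only.

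Cells that meet heat or other protein-damaging stress activate the transcription factor HSF1, which binds inverted repeats of the unit GAA, called heat shock elements, in the promoters of chaperone genes. Hsp70 proteins bind exposed stretches of unfolded clients in a cycle driven by ATP, in which Hsp40 co-chaperones stimulate hydrolysis and Hsp110 proteins exchange the nucleotide. Hsp90 completes the folding of kinases and hormone receptors, and small heat shock proteins hold unfolding clients without using ATP. In muscle, small heat shock proteins associate with the contractile filaments, and dissociation of tissue into single cells is itself a known trigger of heat shock genes.

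The promoters of 4 members are shown because they carry the letters of the heat shock element, the repeat that HSF1 binds. The windows run from 250 bases before to 50 bases after the start and come from RefSeq (GRCm38.p6). A window was found for 5 of the 7 members, the exceptions being Hspa8 and Hsp90aa1. Capitals mark 2 adjacent inverted units, searched as GAANNTTC or TTCNNGAA, and their overlaps. Each spelling is its own reverse complement, so both strands are covered. The 4 sequences below are printed 5′ to 3′ on the gene's strand, which is the minus strand at chr17:34972107-34972406 for Hspa1a, at chr17:34959189-34959488 for Hspa1b and at chr5:149636287-149636586 for Hsph1, and the plus strand at chr5:135887669-135887968 for Hspb1.
Hspa1a: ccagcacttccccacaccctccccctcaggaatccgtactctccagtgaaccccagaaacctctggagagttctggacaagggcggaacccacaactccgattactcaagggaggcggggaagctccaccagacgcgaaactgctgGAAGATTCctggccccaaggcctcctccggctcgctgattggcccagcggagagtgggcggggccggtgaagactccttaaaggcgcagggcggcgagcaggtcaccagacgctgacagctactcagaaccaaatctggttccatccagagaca
Hspa1b: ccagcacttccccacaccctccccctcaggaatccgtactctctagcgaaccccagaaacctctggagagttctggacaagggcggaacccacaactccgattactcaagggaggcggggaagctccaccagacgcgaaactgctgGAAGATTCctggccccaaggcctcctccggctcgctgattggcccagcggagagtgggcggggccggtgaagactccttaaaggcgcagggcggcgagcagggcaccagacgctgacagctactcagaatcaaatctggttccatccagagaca
Hsph1: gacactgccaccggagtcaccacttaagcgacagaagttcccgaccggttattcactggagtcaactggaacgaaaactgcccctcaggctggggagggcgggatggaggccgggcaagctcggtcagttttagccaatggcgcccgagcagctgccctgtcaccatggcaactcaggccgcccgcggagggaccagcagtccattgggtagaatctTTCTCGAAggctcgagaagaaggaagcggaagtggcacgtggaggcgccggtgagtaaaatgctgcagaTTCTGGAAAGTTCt
Hspb1: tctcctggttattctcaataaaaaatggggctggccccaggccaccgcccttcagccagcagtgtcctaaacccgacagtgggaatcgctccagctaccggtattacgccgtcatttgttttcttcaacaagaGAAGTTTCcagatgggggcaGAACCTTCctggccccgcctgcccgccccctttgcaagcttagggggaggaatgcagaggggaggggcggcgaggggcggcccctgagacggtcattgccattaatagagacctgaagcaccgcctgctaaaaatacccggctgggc

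Hspa1a and Hspa1b, the paired inducible Hsp70 genes, hold 1 match each, GAAGATTC at bases -104 to -97 from the start. Their windows are identical at 296 of 300 bases. Hspb1, the small heat shock protein Hsp27 (also called Hsp25 in mice), holds GAAGTTTC at -117 to -110 and GAACCTTC at -97 to -90. Hsph1, an Hsp110 protein, holds TTCTCGAA at -33 to -26 and, after its start, TTCTGGAA at 37 to 44 overlapping GAAAGTTC at 42 to 49. That overlap spells 3 alternating units, TTCTGGAAAGTTC at 37 to 49. Dnajb1, an Hsp40, has 2 annotated starts, and neither window holds a match. In all, 4 of the 5 members with a window hold the 2-unit motif, against 15.1% of 32851 mouse promoter windows of this length. The 3-unit motif (GAANNTTCNNGAA or TTCNNGAANNTTC) is in 1 of the 5 members and in 0.603% of all windows. A match describes letters in a window and not a bound site.

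**Figure D1:**
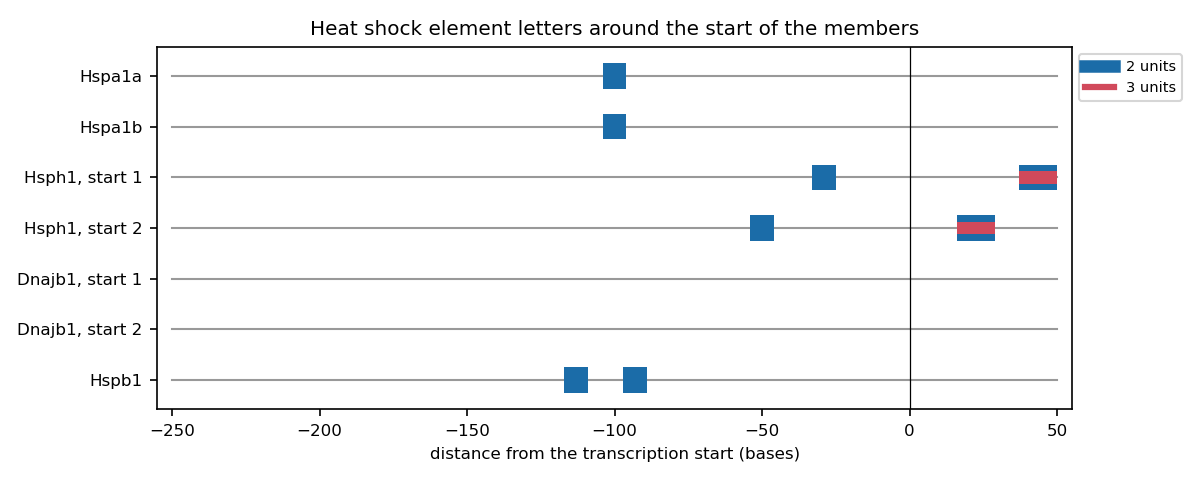
Position of heat shock element letters in the promoter windows of the members, in bases from the annotated start (0), with 2-unit matches in blue and 3-unit matches in red. Hspa1a and Hspa1b have a match at the same place, Hspb1 has 2 and the Hsph1 windows have 3, while the Dnajb1 windows have none.

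Hspa1a and Hspa1b need care as separate genes, because they are near-identical copies. Hspa1a lies at chr17:34969190-34972156 and Hspa1b at chr17:34956436-34959238, both on the minus strand of GRCm38 and 9.95 kb apart. Their coding sequences are 99.4% identical, and 82.3% of the 50-base stretches in the Hspa1a coding part also occur in Hspa1b. None (0%) of the 50-base stretches after the coding part are shared, and the 3' chemistry reads that end. The authors' counting could still have dropped or split coding reads, so the summed value of both genes is given beside the single ones in the comparisons below. The other members lie at chr9:40800984-40810087 (Hspa8, plus strand), chr5:149614287-149636376 (Hsph1, minus), chr8:83608193-83612653 (Dnajb1, plus), chr12:110690605-110702728 (Hsp90aa1, minus) and chr5:135887919-135889563 (Hspb1, plus).

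The libraries held 1305, 1317, 1683 and 2207 barcodes and 33801488, 25921795, 28597422 and 40666916 UMIs. Filters left 1199, 1149, 1404 and 1899 cells, whose median depth was 22270, 16042, 8627 and 10312 UMIs. Cells were grouped into 26 clusters and named only from marker genes, so every name ends in "-like". Pairs of libraries shared at most 3 cell barcodes. Levels are UMIs summed over the cells of a class per 1000000 nuclear-encoded UMIs (CPM), a measure of 3' ends that is not divided by gene length. The satellite-like class gathers 6 clusters with 3 to 7 enriched markers, from cells with the stem cell genes Pax7 and Myf5 (cluster 3) to clusters led by genes of differentiating and fusing myocytes such as Myog, Mymk, Mymx and Myh3 (clusters 22 and 23). Over all 5651 kept cells the members had 9547 (Dnajb1) to 255164 (Hspa8) UMIs, so counting error is small in large classes. Hspa1a and Hspa1b were the 2 members among the 2000 variable genes used for clustering, and clustering without any chaperone gave a satellite-like ratio of 0.496 for their sum, against 0.497 with them.

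The inducible pair Hspa1a and Hspa1b was present in every compared class, but at levels that depended on the library. In satellite-like cells Hspa1a stood at 164.2 CPM in vehicle bulk, 239.3 in LNP-CRISPR bulk, 304.4 in vehicle kit and 152 in LNP-CRISPR kit. Hspa1b stood at 123.1, 219.3, 257.5 and 127.1 CPM in the same order. Both copies were thus highest in vehicle kit, and the bulk values rest on 43 and 36 cells against 528 and 595 in the kit. The summed pair in FAP-like cells, the fibro-adipogenic progenitors, was 313.2 CPM in vehicle bulk and 268.3 in LNP-CRISPR bulk. In macrophage or monocyte-like cells it was 498.9 and 143.2 CPM, and in dendritic-like cells 512.8 and 213.2. Pericyte or smooth muscle-like cells of the kit had a summed level of 145.8 (vehicle) and 152.6 CPM (LNP-CRISPR), below the satellite-like cells of both kit libraries. The highest named class of the kit was tenocyte-like, at 1029 (vehicle) and 414.2 CPM (LNP-CRISPR) from 24 and 38 cells. Satellite-like cells came next, at 562 and 279.1 CPM. Neutrophil-like cells were the low end of bulk. They had 0 of 78932 UMIs in 33 vehicle cells, which allows a level of up to 38.0 CPM at a floor of 3 counts, and 24.17 CPM in 155 LNP-CRISPR cells.

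Hspa8, the constitutive Hsp70 (Hsc70) that serves cells without stress, varied less. Satellite-like cells had 2574, 2867, 2995 and 2682 CPM over the 4 libraries, and led the named classes in each library. The lowest named class in bulk was neutrophil-like at 405.4 (vehicle) and 360.1 CPM (LNP-CRISPR). FAP-like cells had 1826 and 1857 CPM in the bulk libraries, and glial-like cells 1220 and 1171 CPM in the kit libraries. Whether UMIs of processed copies of Hspa8 or Hsp90aa1 entered these counts was not tested.

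Hsp90aa1, the stress-inducible cytosolic Hsp90, was again highest in satellite-like cells among the named classes. The values were 1623, 1645, 1992 and 2018 CPM over the 4 libraries, so the kit libraries lay above the bulk libraries under both treatments. Fibre-like cells had the lowest level of the named kit classes, 169.7 CPM in vehicle kit and 297.1 in LNP-CRISPR kit, from 24 and 61 UMIs. Hsph1, which exchanges the nucleotide of Hsp70, had 145.7, 167.1, 182.2 and 170.1 CPM in satellite-like cells of the 4 libraries. In macrophage or monocyte-like cells it had 73.36 CPM in vehicle bulk and 25.08 in LNP-CRISPR bulk. Dnajb1, which stimulates the Hsp70 ATPase, did not share this order. In bulk it was 115.6 and 121.9 CPM in FAP-like cells and 121.5 and 105.9 in T or NK-like cells, all above the 44.27 and 55.01 CPM of bulk satellite-like cells.

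Hspb1 differed widely between the named classes. Pericyte or smooth muscle-like cells had 1064, 784.2, 892 and 1107 CPM over the 4 libraries. Fibre-like cells had 544.6 and 652.7 CPM in the kit libraries. Satellite-like cells had 178.5, 122.4, 280 and 178.9 CPM over the 4 libraries, and FAP-like cells 74.93 and 84.87 in bulk. Immune classes were near the detection limit, with 2.717 and 4.529 CPM (8 and 13 UMIs) in macrophage or monocyte-like cells and 1.835 and 2.305 in dendritic-like cells. Contractile classes were thus at the top of the order and immune classes at the bottom in each isolation that held them. After each cell was thinned to 1000 UMIs, 45.6% of pericyte or smooth muscle-like cells in vehicle kit and 54.3% in LNP-CRISPR kit had an Hspb1 UMI. Unthinned, the shares were 91.4% and 92.2% at median depths of 16178 and 18531 UMIs. In glial-like cells, the kit class with the lowest Hspb1 level, 2.39% (of 209) and 2.8% (of 393) of thinned cells and 9.92% and 11% of unthinned cells had one, at median depths of 6634.5 and 7699.5 UMIs.

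**Figure D2:**
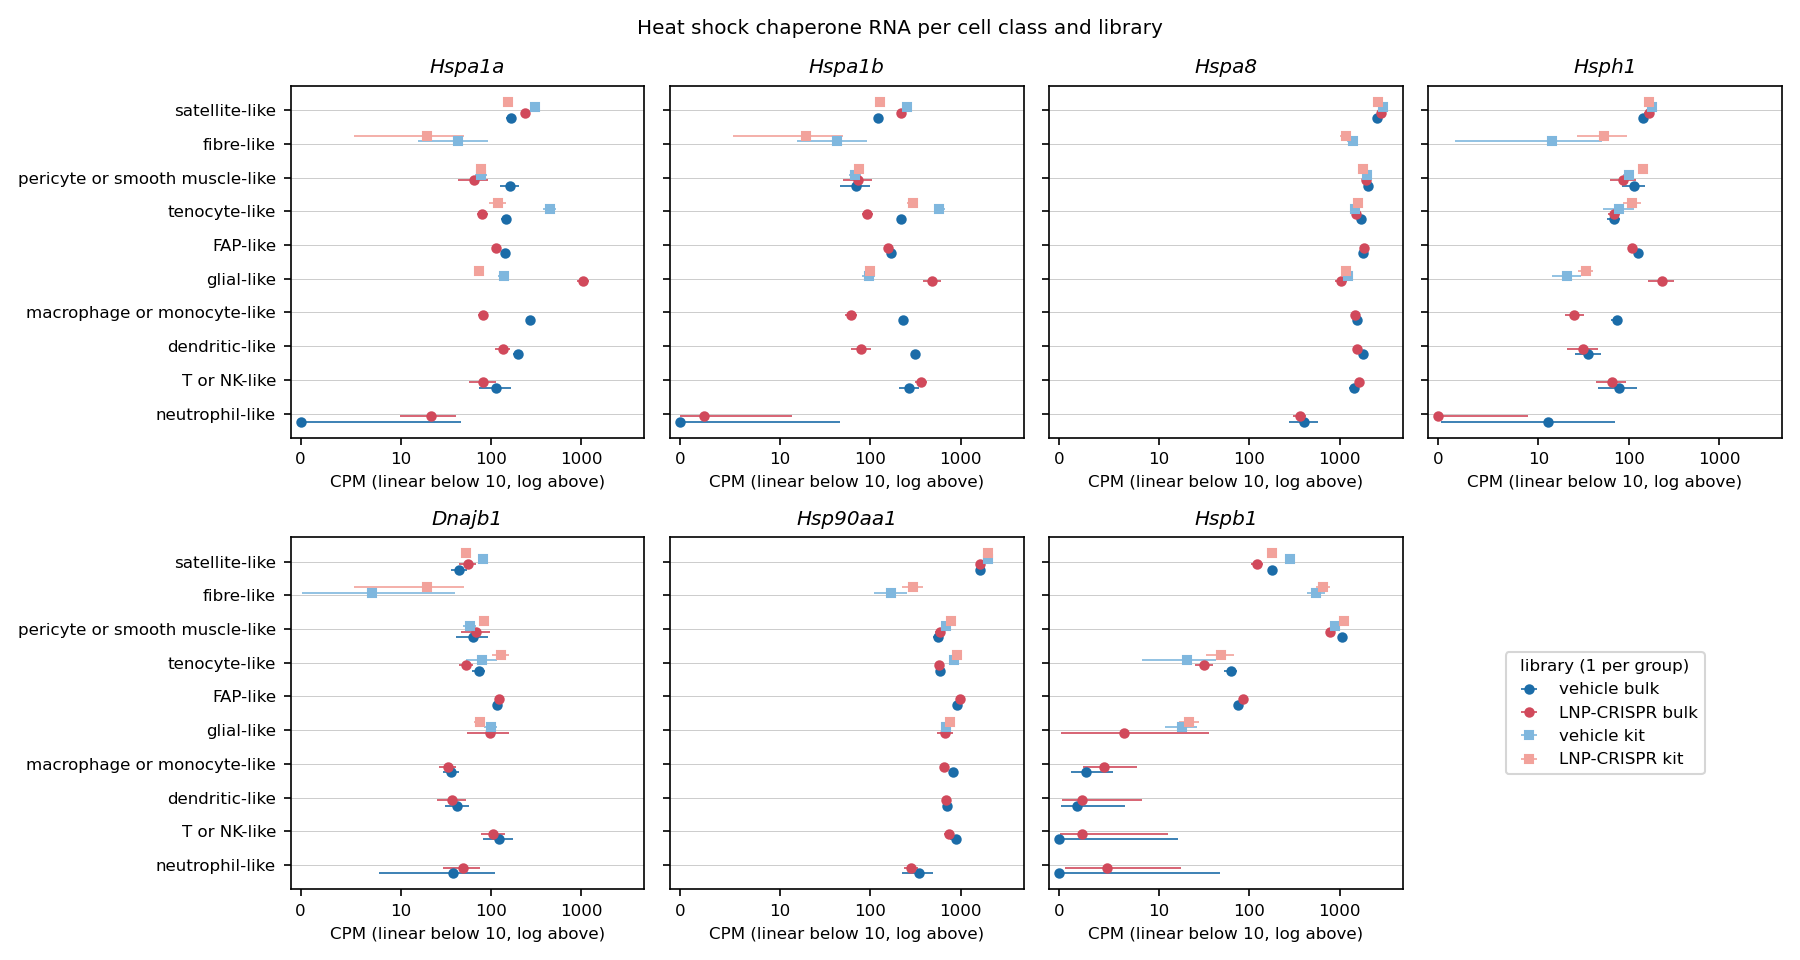
Level of each member (UMIs per 1000000 nuclear-encoded UMIs, log axis that is linear below 10) in 10 named classes, with 1 point per library and bars for the 95% Poisson interval. Hspa8 and Hsp90aa1 are highest in satellite-like cells and Hspb1 in pericyte or smooth muscle-like cells, and the Hspa1a and Hspa1b points of 1 class lie apart by library.

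Across 18 points of class and library with at least 50 cells, the members did not all share a pattern. Hspa8 and Hsph1 ran together (Pearson's r = 0.91, Spearman's rho = 0.82), as did Hspa1a and Hspa1b (0.83 and 0.77). These pairs were not separate groups, since Hspa1b also ran with Hspa8 (0.8 and 0.55) and Hspa1a with Hsp90aa1 (0.77 and 0.61). Hspa1a and Hspb1 did not run together (-0.23 and -0.31), and neither did Hsp90aa1 and Hspb1 (r = -0.02). These points share 4 libraries and a common denominator, and classes differ in depth, so the correlations are descriptions. Among 10217 genes, those most like Hspb1 were Hacd1 (r = 0.97), Nexn (0.968), Dmpk (0.966), Tpm2 (0.953) and Mtss2 (0.932). For Hspa8 they were Ssb (0.965), Naca (0.958), Tcp1 (0.955), Rnmt (0.95) and Snrpd1 (0.947). For summed Hspa1a and Hspa1b the best matches were lower, Atp6v0a2 (0.893), Eef1a1 (0.892), Tor2a (0.884), Rrp7a (0.884) and Parp2 (0.883). Several of these genes came near the detection limit at their lowest point. That point was 2.42 CPM for Atp6v0a2, Parp2, Rnmt and Snrpd1 and 0 for Nexn, Dmpk and Mtss2. The weight of such points in r was not tested.

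UMIs of Hspa1a, Hspa1b, Hspb1 and Dnajb1 were concentrated in fewer satellite-like cells than those of Hspa8, Hsph1 and Hsp90aa1. In satellite-like cells of vehicle kit, the 10% of cells with most UMIs of a gene held 67.5% of Hspa1a, 68.6% of Hspa1b, 66.9% of Hspb1 and 54% of Dnajb1. The same share was 39.4% for Hspa8, 40.8% for Hsph1 and 41.7% for Hsp90aa1. In LNP-CRISPR kit the shares were 71.6% for Hspa1a, 66.1% for Hspa1b and 34.3% for Hspa8, so the concentration of the pair was of like size under both treatments. Several other classes went further, and not only immune ones. The richest 10% of macrophage or monocyte-like cells held 88.6% of the summed pair in vehicle bulk and 89.1% in LNP-CRISPR bulk. In dendritic-like cells of vehicle bulk 1 cell held 69.6% of the pair's UMIs. With cells ranked by the pair's CPM, the richest 10% held 45.6% (vehicle) and 50.3% (LNP-CRISPR) in satellite-like cells of the kit. By that ranking they held 71.9% and 86.7% in pericyte or smooth muscle-like cells and 72.1% and 74.3% in glial-like cells. In macrophage or monocyte-like cells of bulk they held 88.1% and 88.6%. Classes differ in depth and in UMIs of the pair, and the part of these differences was not tested.

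**Figure D3:**
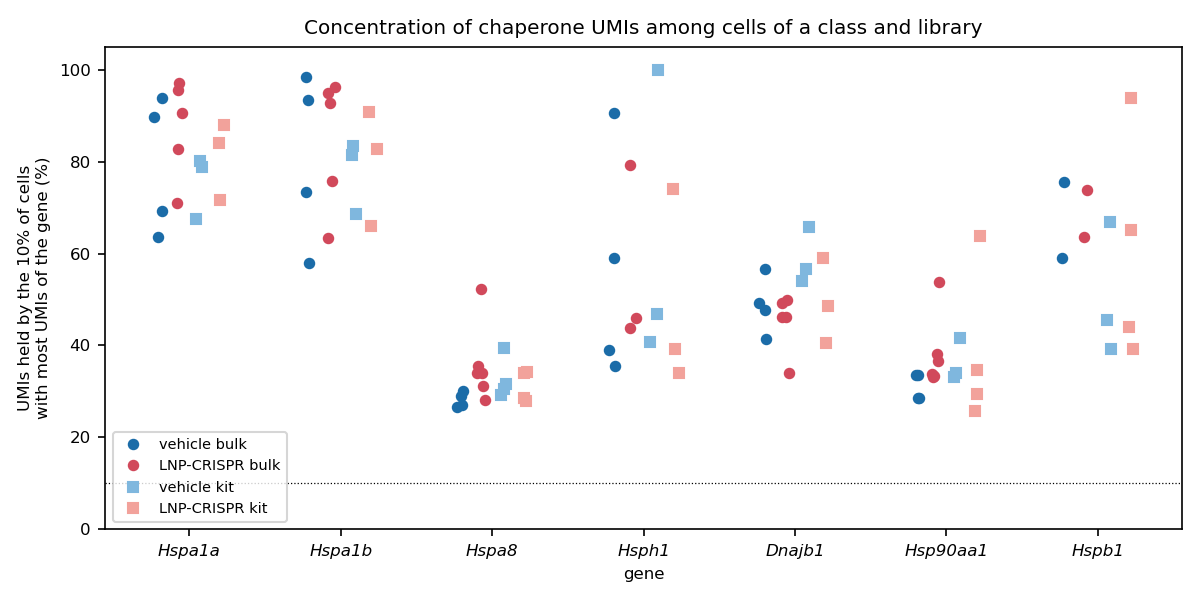
Percent of a gene's UMIs found in the 10% of cells with most UMIs of that gene, with 1 point per class and library that has at least 50 cells and 30 UMIs, and a dotted line at the 10% that even sharing would give. Hspa1a and Hspa1b points lie above those of Hspa8 in satellite-like and macrophage or monocyte-like cells, for example 67.5% against 39.4% in satellite-like cells of vehicle kit.

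Satellite-like cells rich in Hspa1a and Hspa1b were also rich in some of the other members. In satellite-like cells of vehicle kit, the 53 cells with the highest summed CPM of the pair had 5133 CPM of it, and the other 475 had 321.8. Hspb1 was 2089 CPM in the first set and 185 in the second (11.3-fold), Dnajb1 452.9 and 60.98 (7.43-fold), and Hsph1 481.8 and 166.5 (2.89-fold). Hspa8 and Hsp90aa1 were 1.09-fold higher in the same cells. The 60 richest cells of LNP-CRISPR kit showed smaller gaps, 2.43-fold for Hspb1, 2.49-fold for Dnajb1 and 2.36-fold for Hsph1. Across single cells of vehicle kit thinned to 1000 UMIs, Spearman's rho of Hspa1a was 0.26 with Hspb1, 0.17 with Hsph1 and 0.16 with Dnajb1. The richest cells were not chosen within clusters, and the pair ran from 317.7 CPM in cluster 11 to 1450 in cluster 3 of vehicle kit. Other classes had other patterns. In tenocyte-like cells of vehicle bulk and LNP-CRISPR bulk the richest cells had 0.501 and 0.614 times the Dnajb1 and 0.82 and 0.445 times the Hspb1 of the rest, and in macrophage or monocyte-like cells of vehicle bulk 3.57 times the Hsp90aa1. The richest satellite-like cells also differed in other measures. Their summed level of 25 immediate early genes, a list used here for the handling of cells, was 18802 CPM against 4150 in the other satellite-like cells of vehicle kit, and RNA of 10 fibre genes was 6538 CPM against 1746. Their median depth was 14440 UMIs against 20652. The part of handling, depth or cluster in the pair's level was not tested.

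Delivery of LNP-CRISPR left its mark as UMIs of Cas9. The vehicle libraries had 0 Cas9 UMIs, which allows levels of up to 0.0941 (bulk) and 0.118 CPM (kit) over their kept cells. In LNP-CRISPR bulk Cas9 reached 1648 CPM in FAP-like cells, 1454 in macrophage or monocyte-like cells, 784 in tenocyte-like cells and 194.7 in dendritic-like cells. In LNP-CRISPR kit it was 263.5 CPM in satellite-like cells, 97.41 in fibre-like cells, 97.03 in pericyte or smooth muscle-like cells and 22.87 in glial-like cells. Set beside these levels, the LNP-CRISPR to vehicle ratio of the summed pair was 0.857 in FAP-like, 0.287 in macrophage or monocyte-like, 0.473 in tenocyte-like and 0.416 in dendritic-like cells of bulk. In the kit it was 0.497 in satellite-like, 1.05 in pericyte or smooth muscle-like and 0.729 in glial-like cells. The relation between Cas9 and the ratio was not tested.

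The LNP-CRISPR to vehicle comparison covered 8 classes with at least 50 cells in both libraries of an isolation, and a pair of member and class counted as higher or lower at a ratio of at least 1.5-fold with at least 30 UMIs. In bulk, 7 of 26 pairs were lower, 0 were higher and 19 lay between. They fell in macrophage or monocyte-like cells (3 members), tenocyte-like cells (3) and dendritic-like cells (1). The share of all genes lower by the same rule was 6.36% in macrophage or monocyte-like, 8% in tenocyte-like, 10.4% in dendritic-like and 5.02% in FAP-like cells, and the share higher was 4.53%, 6.25%, 8.66% and 3% in the same order. In the kit, 5 of 24 pairs were lower and 2 were higher. The lower ones were 4 members in satellite-like cells, where 3.69% of all genes were lower and 2.7% higher, and 1 in glial-like cells, where 4.06% were lower. The higher ones were Hsp90aa1 in fibre-like cells, where 12% of all genes were higher and 6.42% lower, and Hsph1 in glial-like cells, where 6.73% were. In pericyte or smooth muscle-like cells, where 4.57% of all genes were higher and 9.6% lower, no member passed.

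In satellite-like cells of the kit, the inducible Hsp70 pair, Dnajb1 and Hspb1 were lower after LNP-CRISPR, while Hspa8, Hsph1 and Hsp90aa1 lay inside the threshold. The summed pair was 562 CPM in vehicle kit and 279.1 in LNP-CRISPR kit, a ratio of 0.497 (95% interval 0.482 to 0.512), and both copies moved alike (0.499 and 0.494). Dnajb1 was 80.54 and 52.21 CPM, a ratio of 0.648 (0.602 to 0.698), and Hspb1 280 and 178.9, a ratio of 0.639 (0.614 to 0.664). Both lay close to the threshold and crossed it without the highest cell, at 0.669 for Dnajb1 and 0.683 for Hspb1. Hspa8 (0.895), Hsph1 (0.934) and Hsp90aa1 (1.01) had ratios near 1. After thinning, the share of cells with a UMI of the pair was 26.4% (22.7 to 30.4%, 523 cells) in vehicle kit and 20.4% (17.3 to 23.9%, 592 cells) in LNP-CRISPR kit, intervals that overlap. The unthinned shares were 61.9% and 58%. Beside these values, the immediate early genes stood at 4882 and 4053 CPM, the median mitochondrial share at 4.92% and 4.35%, the median depth at 19310.5 and 26705 UMIs and RNA of 10 fibre genes at 1985 and 2530 CPM. Their part in the result was not tested. In the cells at or under the median mitochondrial share, the ratio of the pair was 0.555.

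The difference in satellite-like cells ran through the clusters that make up the class. The summed pair was lower after LNP-CRISPR in 6 of 6 clusters, with ratios from 0.204 to 0.79, and at least 1.5-fold lower in 5. Cluster 3, led by the stem cell markers Pax7 and Myf5, had the highest level, 1450 CPM in vehicle kit and 845.2 in LNP-CRISPR kit (ratio 0.583). Cluster 22, with the differentiation factor Myog, had 942.6 and 399.4 CPM (0.424). Cluster 23, with the embryonic myosin Myh3 and the fusion factor Mymx, had 492 and 100.4 CPM (0.204) from 24 and 48 cells. The ratio in cycling cluster 9, led by histone genes, was 0.659. Hspb1 was at least 1.5-fold lower in 6 of 6 clusters (0.319 to 0.647) and highest in cluster 23, at 935.6 and 564.9 CPM. Dnajb1 was at least 1.5-fold lower in 4 of 6, for example 184 and 90.62 CPM in cluster 3. Hspa8 (0.698 to 1.11), Hsph1 (0.682 to 1.12) and Hsp90aa1 (0.79 to 1.16) passed in none of the 6. Given equal weight per cluster, the ratio of the pair was 0.502. All 6 clusters come from the same vehicle kit and LNP-CRISPR kit libraries, so they are not replicates. The share of all genes past the threshold is not given per cluster.

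**Figure D4:**
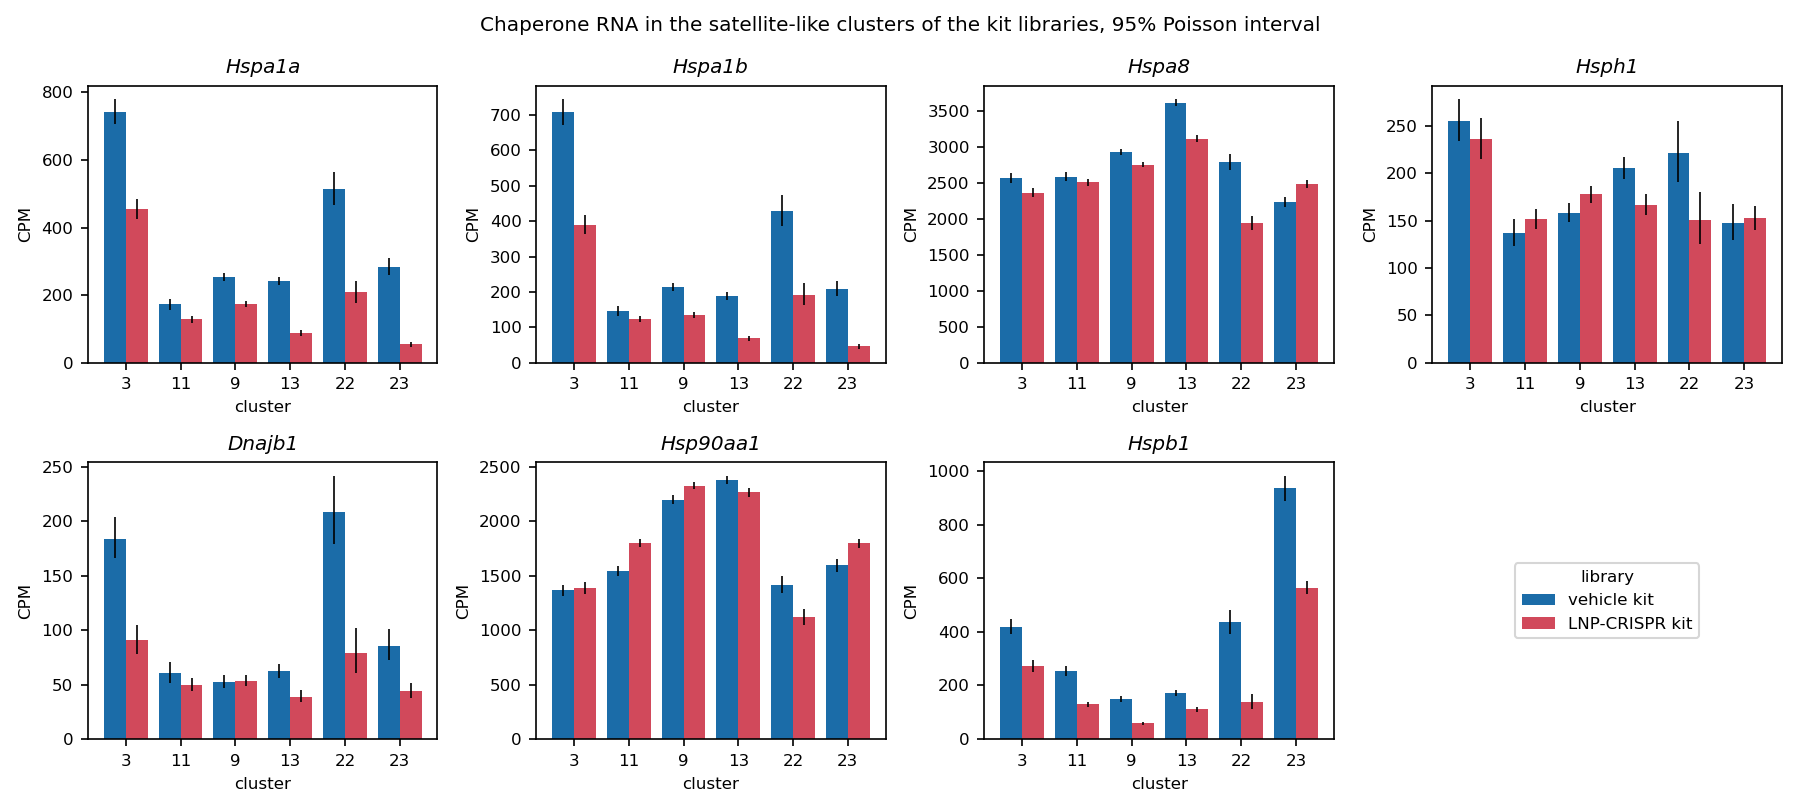
Level of each of the 7 members (CPM) in the 6 satellite-like clusters of the kit, vehicle in blue beside LNP-CRISPR in red, with bars for the 95% Poisson interval. Hspa1a, Hspa1b and Hspb1 are lower in LNP-CRISPR kit in 6 of 6 clusters, and the Hspa1a and Hspa1b bars are tallest in cluster 3.

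In macrophage or monocyte-like cells of bulk the summed pair had the lowest ratio of the 8 classes, 0.287 (0.257 to 0.32). Hspa1a was 267.3 CPM in vehicle and 82.22 in LNP-CRISPR, a ratio of 0.308 (0.265 to 0.356), and Hspa1b 231.6 and 60.97, a ratio of 0.263 (0.222 to 0.311). Hsph1 was 73.36 and 25.08 CPM (0.342, 0.258 to 0.448). A single vehicle cell held 52.3% of its Hsph1 UMIs, and without the highest cell the ratio was 0.627. Hspa8 (1547 and 1484 CPM), Dnajb1 (36 and 33.1) and Hsp90aa1 (820.2 and 661.9, ratio 0.807) stayed within the threshold. After thinning, the share of cells with a UMI of the pair was 14.4% (9.83 to 20%) and 7.43% (4.01 to 12.4%), so the intervals overlap, and the unthinned shares were 37.4% and 30.7%. The immediate early genes stood at 10055 and 9602 CPM in these cells and RNA of fibre genes at 335.6 and 177.7, and their part was not tested. The clusters of the class differed in size of ratio. In cluster 10, led by C1qa, the summed pair was 656.3 and 170.3 CPM (0.259, 0.23 to 0.292). In cluster 16, led by Chil3 and Ly6c2, it was 111.7 and 72.77 CPM (0.652, 0.462 to 0.913), from 95 and 58 UMIs.

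Tenocyte-like cells, the fibroblasts of tendon, and dendritic-like cells also had less of the pair after LNP-CRISPR. In tenocyte-like cells the summed pair was 365.9 and 173.1 CPM (0.473, 0.419 to 0.533). There Hspa1a was 145.4 and 80.2 CPM (0.552, 0.459 to 0.662), Hspa1b 220.5 and 92.89 (0.421, 0.358 to 0.495) and Hspb1 61.85 and 31.51 (0.509, 0.379 to 0.68). Weighting each cell equally moved Hspa1a to 0.673, just inside the threshold. Thinned to 1000 UMIs, the summed pair had a ratio of 0.989 (0.523 to 1.9) from 19 and 25 UMIs, and the shares of cells with a UMI were 14.8% and 14% (64.2% and 47.7% unthinned). Dnajb1 was 0.716. In dendritic-like cells the summed pair was 512.8 and 213.2 CPM (0.416, 0.35 to 0.492). There Hspa1b was 313.7 and 79.51 CPM (0.253, 0.193 to 0.329), but 1 vehicle cell held 79.8% of its UMIs. Without the highest cell the dendritic-like ratio of Hspa1b was 0.482 and that of Hspa1a 0.316, against 0.671 with it.

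FAP-like cells, with 645 and 431 cells the largest class of bulk, showed no member past the threshold over the class as a whole. Hspa1a was 142.8 CPM in vehicle and 112.5 in LNP-CRISPR (0.788), and Hspa1b 170.5 and 155.8 (0.914). The other 5 members had ratios of 0.841 (Hsph1) to 1.13 (Hspb1). The shares of thinned cells with a UMI of the pair were 20.5% and 20.6% (82.9% and 77% unthinned). The 4 FAP-like clusters differed in direction. The ratio of the summed pair was 0.939 in cluster 2, 0.95 in cluster 7, 1.41 (1.28 to 1.55) in cluster 8 and 0.503 (0.442 to 0.572) in cluster 21, which has 48 and 33 cells and Mki67, a gene of cycling cells, among its leading genes. Hspb1 had a ratio of 1.74 (1.57 to 1.93) in cluster 2 and 0.662 (0.544 to 0.803) in cluster 8. Hsph1 had a ratio of 0.562 (0.458 to 0.684) in cluster 7.

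The remaining kit classes gave a mixed picture. In pericyte or smooth muscle-like cells the summed pair had a ratio of 1.05 (0.924 to 1.19), a value that joins clusters of opposite direction. Cluster 1, with 141 and 303 cells, stood at 109.3 and 154.3 CPM (1.41, 1.23 to 1.63). The shallow cluster 19, with 34 and 56 cells, had 111 UMIs of the pair in vehicle and 1 in LNP-CRISPR (0.0248, 0.000624 to 0.141). The class ratio was 0.64 after thinning, 0.81 with equal weight per cell and 1.37 under a stricter cell filter. The other members of this class had ratios above 1 apart from Hspa8 (0.894), with Hsph1 at 1.45 (1.26 to 1.68), Dnajb1 at 1.44 (1.19 to 1.74) and Hspb1 at 1.24. With median-of-ratios scaling, Dnajb1 and Hsph1 crossed the threshold there, at 1.52 and 1.54. In glial-like cells Hspa1a was 138.8 and 73.11 CPM (0.527, 0.434 to 0.64), while Hspa1b, at 96.7 and 98.55, had a ratio of 1.02 and their sum, at 235.5 and 171.7, one of 0.729 (0.635 to 0.837). For Hspa1b the main glial-like cluster 0 had a ratio of 0.881 (0.713 to 1.09), and cluster 14, with a median of 1061 UMIs, went from 3 UMIs in vehicle to 46 in LNP-CRISPR. Glial-like Hsph1 was 20.72 and 33.49 CPM (1.62, 1.07 to 2.51), and 1.32 under a stricter cell filter. Fibre-like cells were shallow, with medians of 931 and 1040.5 UMIs, and their Hsp90aa1 was 169.7 and 297.1 CPM (1.75, 1.08 to 2.94). Its ratio was 1.48 with equal weight per cell and 3.48 under the stricter filter. Under that filter the class was made anew from other barcodes, with a median of 3313 UMIs. Its leading genes there included Car3 and Eef1a2, which also lead the unnamed cluster 6 described below. Hspb1 in fibre-like cells had a ratio of 1.2 (0.899 to 1.61), and the pair had 6 or fewer UMIs of each copy per library there.

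Clusters 4 and 6 of the kit had no name and are given by number. Cluster 4 had medians of 822 and 711 UMIs, and its haemoglobin RNA reached 39089 CPM in LNP-CRISPR kit. There, where 4.83% of all genes were higher and 24.2% lower, Hspa1b (1.94) and Hspb1 (1.78) were higher and Hsph1 (0.501) lower. Cluster 6 had 10 enriched fibre markers and a median of 4430 UMIs over all libraries. It stayed unnamed because Car3, a marker of another class, was among its leading genes and no fibre marker was. In cluster 6, where 23.3% of genes were higher and 4.77% lower, Hsp90aa1 was 65.17 and 153.4 CPM, a ratio of 2.35 (1.76 to 3.16), and Hspb1 860.2 and 803.2.

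**Figure D5:**
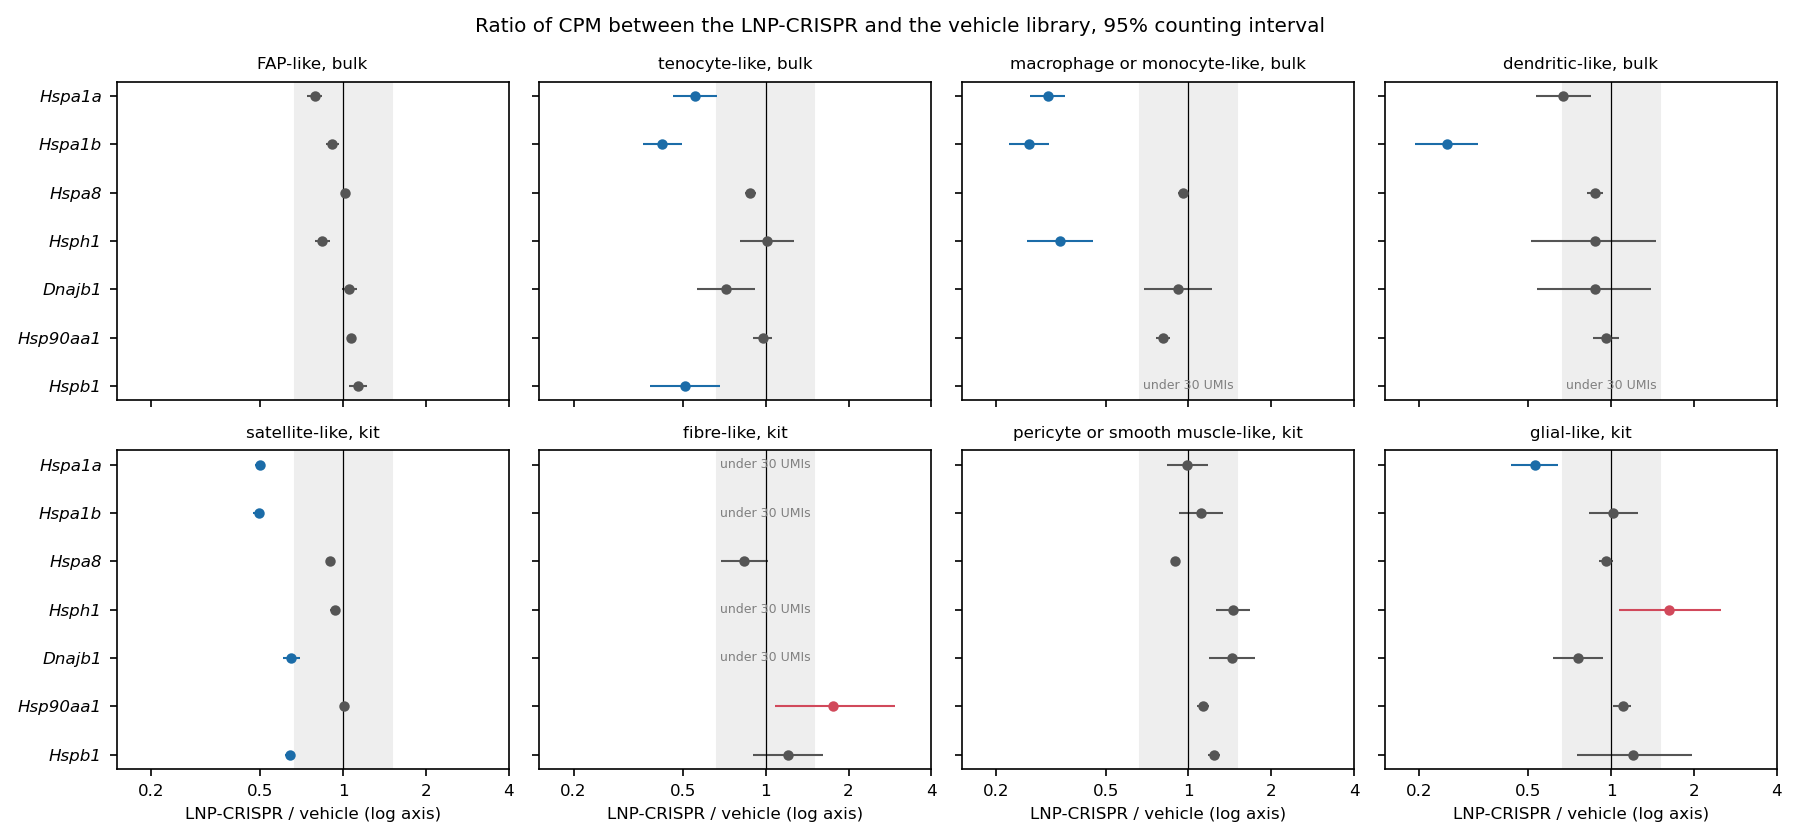
LNP-CRISPR to vehicle ratio (log axis) of each member in the 8 compared classes with 95% counting intervals, blue for at least 1.5-fold lower, red for at least 1.5-fold higher and a grey band for values between. Blue points are in macrophage or monocyte-like, tenocyte-like, dendritic-like, satellite-like and glial-like cells, and Hspa8 stays between 0.836 and 1.02 in all 8.

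A list of 20 other HSF1 targets and their partners was set beside the members. In satellite-like cells of the kit 19 of 20 had at least 30 UMIs and 0 were higher or lower by 1.5-fold, with a median log2 ratio of -0.03 against -0.02 over all genes. Hsp90ab1, the constitutive Hsp90, was 4799 and 5174 CPM (1.08), Serpinh1, the collagen chaperone, 377 and 367.1 (0.974), Bag3, a partner of Hsp70 in filament turnover, 56.75 and 50.19 (0.884), and Cryab, a small heat shock protein, 256.7 and 236 (0.919). The same list had 0 higher and 0 lower in FAP-like cells (19 measured), 1 higher and 0 lower in macrophage or monocyte-like cells (17), and 0 higher and 1 lower in tenocyte-like cells (18). It had 1 higher and 4 lower in dendritic-like cells (17), where 8.66% of all genes were higher and 10.4% lower. It had 4 higher and 1 lower in fibre-like cells (9), where 12% of all genes were higher and 6.42% lower, and 0 of either kind in pericyte or smooth muscle-like (19) and glial-like cells (18). The members with at least 30 UMIs had a median log2 ratio of -0.63 in satellite-like cells of the kit, -0.48 in tenocyte-like and 0.02 in FAP-like cells. In macrophage or monocyte-like cells, where Hspb1 had too few UMIs and is left out, it was -0.93.

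Other chaperone systems in satellite-like cells of the kit were also near a ratio of 1. None of the 15 constitutive partners and regulators, which include Hsf1 (27.6 and 25.56 CPM, 0.926) and Hsf2 (29.2 and 38.6, 1.32), passed the threshold. Likewise 0 of 15 chaperones of the endoplasmic reticulum and mitochondria and 0 of 8 subunits of the chaperonin CCT did. Of 7 muscle small heat shock proteins and partners, 2 were higher, the myosin chaperone Unc45b (8.394 and 16.93 CPM, 2.02) and Hspb7 (1.442 and 3.502 CPM, 2.43), and 0 were lower. Of all genes in these cells, 2.7% were higher and 3.69% lower. Cluster 23, with Myh3 and Mymx, held 24 cells in vehicle kit and 48 in LNP-CRISPR kit, and the part of this make-up was not tested. Of the 25 immediate early genes, 1 was higher (Ier3, 1.95) and 2 were lower (Klf2, 0.446, and Fosb, 0.635), with a median log2 ratio of -0.28.

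Bulk and kit libraries of the same treatment are set side by side for classes with at least 20 cells in both, and isolation and preparation cannot be told apart. In satellite-like cells the summed pair was 1.96 times as high in the kit as in bulk for vehicle (1.8 to 2.12), where 8.94% of all genes were at least 1.5-fold higher and 8.2% lower. For LNP-CRISPR it was 0.609 times as high (0.562 to 0.66), where 11.2% of genes were higher and 13% lower. In tenocyte-like cells, from 24 and 38 kit cells, the pair was 2.81 times as high (2.47 to 3.19) for vehicle and 2.39 times (2.05 to 2.78) for LNP-CRISPR. There 15.4% and 11.7% of all genes were higher, and 16.5% and 11.8% lower. In pericyte or smooth muscle-like cells it was 0.632 times as high for vehicle, where 16.2% of genes were higher and 11.5% lower, and 1.11 times for LNP-CRISPR, where 13.2% were higher and 17% lower. Hsp90aa1 of satellite-like cells was 1.23 times as high in the kit under both treatments. In the 22 glial-like cells of LNP-CRISPR bulk the pair stood at 1521 CPM, and 1 cell held 77.1% of its UMIs. The ratio of kit to bulk there was 0.113, where 22.9% of genes were higher and 17.5% lower.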

How the data were processed

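Per the labels, cells of skeletal muscle were made into 10x Chromium 3' v3.1 libraries. The authors deposited raw UMI counts per gene and barcode, already limited to called cells. The matrix headers name cellranger 5.0.1, whereas Cell Ranger 7.0.1 and the build mm10 stand in the submitters' processing notes. The members and all gene lists were chosen with earlier results of these data known.

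Kept barcodes had 200 or more genes and no more than 20% mitochondrial UMIs, and Scrublet calls (5, 3, 7 and 8 cells, under 0.5% of each library, so doublets largely remain) were removed. Cells were clustered in scanpy 1.11.5 (2000 variable genes, 30 components, 15 neighbours, Leiden resolution 1.0). A cluster was named with at least 3 enriched markers, unless its leading genes held more markers of another class. Clusters shallow for their libraries also stayed unnamed when no marker of the class was among their leading genes. UMIs were summed per class and library. Levels have exact Poisson and ratios exact conditional binomial 95% intervals (scipy 1.17.1). All 7 members are named in every class. Other genes follow a rule: the most abundant of each list, those with its highest and lowest ratios in the largest class, and the 5 most alike in pattern, by Pearson's r of log2(CPM + 1). Some genes that the rule names are not reported here. Scripts were tested on simulated data.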

Additional observations from a re-analysis of the deposited data

Results flagged for a closer look

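Some members had LNP-CRISPR to vehicle ratios on opposite sides of 1 in bulk and in the kit, with counting intervals that also lay on opposite sides. In satellite-like cells the ratio of Hspa1a was 1.46 in bulk and 0.499 in the kit, that of Hspa1b 1.78 and 0.494, that of their sum 1.6 and 0.497, and that of Hspa8 1.11 and 0.895. The bulk values rest on 43 and 36 cells, and without the highest cell of each library the sum had ratios of 1.35 and 0.504. In tenocyte-like cells Dnajb1 had 0.716 in bulk and 1.61 in the kit, and Hspb1 0.509 and 2.34, the last from 7 and 34 UMIs. The summed pair was lower in both isolations of these cells, at 0.473 in bulk and 0.403 (0.344 to 0.472) in the kit. The kit value rests on 24 and 38 cells. In pericyte or smooth muscle-like cells Hspb1 had 0.737 in bulk, from 27 cells per library, and 1.24 in the kit. With 1 library per group, the difference between the isolations was not tested.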

How the results depend on the processing

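For 57 ratios of a member or of the summed pair in a class, 622 alternative values were computed. Of these 0 reversed a call, 26 crossed the 1.5-fold threshold and 18 moved by more than 1.5 times. The count of lower pairs in bulk, 7 of 26, was 3 of the 15 that could be counted after thinning to 1000 UMIs per cell, and the count of higher pairs, 0, was 1 with no filter on low counts. The count of lower pairs in the kit, 5, was 3 without the highest cell. The count of higher pairs in the kit, 2, was 1 with equal weight per cell, 4 with median-of-ratios scaling and 4 with no filter on low counts. For the summed Hspa1a and Hspa1b, ratios in satellite-like cells of the kit ran from 0.486 (stricter filter) to 0.617 (thinned). In macrophage or monocyte-like cells they ran from 0.169 (cells of low mitochondrial share) to 0.303 (equal weight per cell). The dendritic-like ratio was 0.611 with called doublets kept. Restriction to cells of low mitochondrial share and equal weight per satellite-like cluster were chosen after seeing the data. No paired analysis was possible because each group has 1 library and the labels give no shared replicate numbers. Depth limits fibre-like cells most, where members other than Hspa8, Hsp90aa1 and Hspb1 had too few UMIs to compare.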

Other observations

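Barcodes set aside for more than 20% mitochondrial UMIs (77 in vehicle bulk, 122 in LNP-CRISPR bulk, 256 in vehicle kit and 299 in LNP-CRISPR kit) had more of the inducible Hsp70 pair than the kept cells of their library in 4 of 4 libraries. Summed Hspa1a and Hspa1b stood at 445.9 CPM against 336, 479.9 against 263.4, 1253 against 474.1 and 917.2 against 247.1. The values of the set-aside barcodes rest on 101, 123, 1424 and 1224 UMIs. Their share of barcodes with a UMI of the pair was lower in bulk, at 28.6% against 62.1% and 20.5% against 46.7%. In the kit it was higher, at 43.8% against 39.3% and 38.8% against 37.1%. Hsph1 was also higher in them, at 287 against 115.4, 171.7 against 92.78, 249.1 against 154.3 and 306.5 against 148.4 CPM. Hspa8 was lower, at 1077 against 1836, 760.9 against 1790, 1412 against 2667 and 1290 against 2338 CPM. These barcodes had medians of 3475, 2644, 5344 and 5556 UMIs, and their cell types were not assigned.

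Within kept satellite-like cells of the kit, the pair also differed by mitochondrial share. In vehicle kit it was 449.2 CPM in the cells at or under the median share and 735.7 in those above it, and in LNP-CRISPR kit 249.2 and 327.6. Hspb1 was 186.5 and 424.1 CPM in vehicle kit and 113.1 and 285.6 in LNP-CRISPR kit. The cells of low and high share also differed in depth, with medians of 22306 and 17967 UMIs in vehicle kit. In LNP-CRISPR kit the medians were 44039 and 19641 UMIs. Clusters differed in mitochondrial share too, with medians over all libraries of 4% in cluster 9 and 5.9% in cluster 23, where Hspb1 was highest. The part of depth and cluster was not tested. Pericyte or smooth muscle-like cells had the opposite order for the pair, at 240.6 and 66.41 CPM in vehicle kit and 208.4 and 102.1 in LNP-CRISPR kit. In vehicle kit, 111 of their 363 UMIs of the pair lay in cluster 19, and 18 cells of the class held 71.9%. Cluster 19 is shallow and had a median mitochondrial share of 1.51% over all libraries. In LNP-CRISPR kit it held 1 of 843 UMIs of the pair.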
